A study of Anser cygnoides with 12 samples.

Results

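The ileum of Yangzhou geese (Anser cygnoides) fed the basal diet was described from the 4 control libraries of a feeding study that has 12 ileum libraries in all. The libraries were chosen by their labels: every library of the control diet was taken, and no measured value entered the choice. The control birds received the basal diet with 18% crude protein and no lactulose; the libraries of the other diets, 4 with 21% crude protein and 4 with 21% crude protein and 0.3% lactulose, were not compared here. The labels do not give the birds' age or sex, nor whether each library is 1 bird or a pool, so the spread between libraries may in part be technical. The libraries carry the replicate numbers 3, 4, 6 and 7 and are called control 3, control 4, control 6 and control 7; wherever 4 values are given for a gene, they stand in that order, and each mean is given with its SD over the 4 libraries (n = 4).

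The ileum is the last stretch of the small intestine. Its villi are lined by absorptive enterocytes, whose brush border carries digestive enzymes and the carriers of amino acids, peptides and sugars, and by mucus-secreting goblet cells and hormone-secreting enteroendocrine cells; beneath them lie a leukocyte-rich lamina propria and layers of smooth muscle. In birds and mammals the distal small intestine recovers bile acids through a route in which SLC10A2 takes them up, FABP6 binds them inside the cell, SLC51A with SLC51B exports them, and the nuclear receptor NR1H4 senses them.

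Expression was measured by RNA-seq of polyadenylated RNA, and levels are in FPKM, fragments scaled to transcript length and library size, which allows different genes to be set side by side. Each library held 38706155 to 48251825 counts over 19836 annotated genes, of which 16964 to 17213 had counts; 11224 to 12198 genes reached 1 FPKM in a library and 11963 did so on average. A gene without a symbol is given by its LOC identifier with the protein named in the deposited description. Control 3 stood apart from the other 3 libraries before any gene was considered. Its median correlation with the others over log2 depth-scaled counts was 0.967, against 0.982 to 0.983 for the other libraries. Ribosomal protein genes matched by symbol took 33.0% of the summed FPKM in control 3, against 22.5% in control 4, 22.8% in control 6 and 14.7% in control 7. Long transcripts were low in it: relative to the mean of the other libraries, the median gene among the longest 3937 transcripts stood at -0.60 on the log2 scale in control 3, while the median gene among the shortest 3937 stood at 0.09. TMM scaling, which balances libraries on their bulk of genes, would raise every level in control 3 by 0.27 on the log2 scale and lower those in control 6 by 0.17. 

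The tissue label was checked against marker lists. Of the 7 genes listed for bile acid handling, 6 were expressed. SLC10A2, the ileal bile acid carrier, reached 82.99, 50.4, 6.84 and 133 FPKM, high in controls 3, 4 and 7 and low in control 6. FABP6 reached 3013, 882, 645 and 827 FPKM and was highest in control 3. The 2 chains of the exporter had 25.1, 19.97, 15.2 and 30.7 FPKM for SLC51A and 7.23, 4.53, 1.79 and 15.2 for SLC51B; SLC51A was below SLC10A2 in controls 3, 4 and 7 and above it in control 6. NR1H4, the bile acid receptor, held 66.4, 47.5, 29.99 and 53.4 FPKM, and NR0B2, a repressor that NR1H4 induces in mammals, 21.2, 20.8, 16.8 and 14.8 FPKM. FGF19, the hormone that the mammalian ileum releases on bile acid uptake, was the exception at 0.166 ± 0.143 FPKM. Among the genes listed for the proximal small intestine, the transcription factor GATA4 had no counts in any library, which by counting error alone allows up to 3 counts in each, and PDX1 stood at 0.122 ± 0.0303 FPKM, the lactase gene LCT at 0.256 ± 0.122 FPKM and the incretin GIP at 0.293 ± 0.211 FPKM. Other genes on that list were not low, and 5 of its 10 genes reached a mean of 1 FPKM. CCK, CYBRD1, a ferric reductase, and the iron exporter SLC40A1 had means of 61.9, 45.7 and 17.03 FPKM. A gene given the symbol SCT (secretin) stood at 22.9 ± 22.3 FPKM. Its deposited description names glucagon family neuropeptides and not secretin, so its identity is uncertain. Of the 9 genes measured from the large intestine list, 4 reached a mean of 1 FPKM. HOXD13 had no counts, and HOXD12 and AQP8 stayed under 1 FPKM in every library. SLC26A3, which is also an ileal chloride exchanger, was high. Without it the list summed to 26.8, 33.6, 20.4 and 31.5 FPKM, with the carbonic anhydrase CA4 as its highest member. Of the 15 acinar pancreas genes and the 10 liver genes listed, only 6 each were measured. These were low, with list sums of 7.47 to 19.8 FPKM and 12.9 to 19.8 FPKM. The listed genes not found by symbol are not covered by these sums.

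The HOX genes, transcription factors that record the position of a tissue along the body axis, were read across their 4 clusters. Of 34 annotated HOX genes, 17 had a mean of at least 1 FPKM and 2, HOXD13 and HOXC12, had no counts. The levels were centred on the middle of the HOXA cluster. HOXA7 led with 8.67, 11.1, 16.9 and 8.03 FPKM and HOXA5 followed with 5.96, 11.5, 14.7 and 8.71 FPKM. Their order did not hold against the spread, since HOXA7 ranked first in controls 3 and 6, HOXA9 in control 4 and HOXA5 in control 7. HOXA6 and HOXA9 came next at 7.78 ± 3.04 and 6.58 ± 4.35 FPKM. The HOXB cluster was led by HOXB4 at 6.295 ± 1.52 FPKM and the HOXC cluster by HOXC5 at 4.57 ± 2.63 FPKM, whereas in the HOXD cluster only HOXD8 and HOXD9 passed 1 FPKM, at 1.599 ± 0.588 and 1.34 ± 0.689 FPKM. The 5′ end of the HOXA cluster differed between libraries: HOXA10 read 1.29, 7.16, 3.13 and 0.632 FPKM, HOXA11 0, 1.16, 0.0792 and 0.0417 FPKM and HOXA13 0.382, 2.84, 0.0838 and 0.135 FPKM. All 3 of these posterior genes were highest in control 4.

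**Figure D1:**
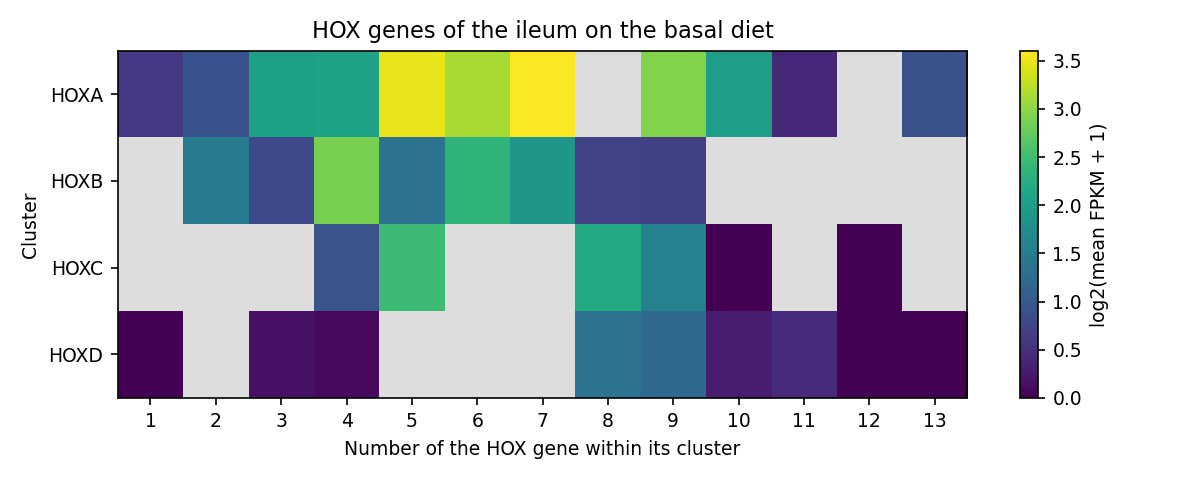
Heat map of the 34 annotated HOX genes by cluster (rows) and number within the cluster (columns); colour is log2 of the mean FPKM plus 1 over the 4 control libraries, and grey marks positions with no gene of that symbol in the table. The brightest cells are HOXA5 to HOXA7 and HOXA9, and the HOXD row is dark apart from HOXD8 and HOXD9.

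The 20 most abundant genes held 15.8% ± 2.94 of the summed FPKM (n = 4), from 12.6% in control 7 to 19.8% in control 3. Of the 20, 14 encode ribosomal proteins. The most abundant gene was EEF1A1, the elongation factor that brings aminoacyl-tRNA to the ribosome, at 17674, 12992, 14452 and 8572 FPKM (gene 106030364, scaffold NW_025927758.1, bases 176904 to 180636, plus strand). FTH1, the iron-storing ferritin heavy chain, was second on average with 14161, 6645, 5390.0 and 6814 FPKM, and was highest in control 3. Others among the 20 were CD74, ACTB and ACTG1. CD74, the invariant chain that chaperones MHC class II molecules, read 1829.6, 3576, 2524 and 3249 FPKM and was lowest in control 3. The cytoplasmic actins were close to each other, with 2229.9, 2847, 2578 and 3473 FPKM for ACTB and 1971, 2781, 1920.0 and 3229 FPKM for ACTG1. Just outside the top 20 came a gene described as bactericidal permeability-increasing protein, LOC106047130, an endotoxin-binding defence protein, at 862, 1879, 3656 and 2243 FPKM. B2M, the light chain of MHC class I, followed at 2250.4, 1676, 1346 and 2368 FPKM. Of the 100 most abundant genes, which held 29.9% to 47.9% of the summed FPKM, 63 were ribosomal protein genes by symbol. This count leaves out LOC106049537, described as 40S ribosomal protein S4, and RPL26L1, described as 60S ribosomal protein L26-like, which are also among the 100.

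**Figure D2:**
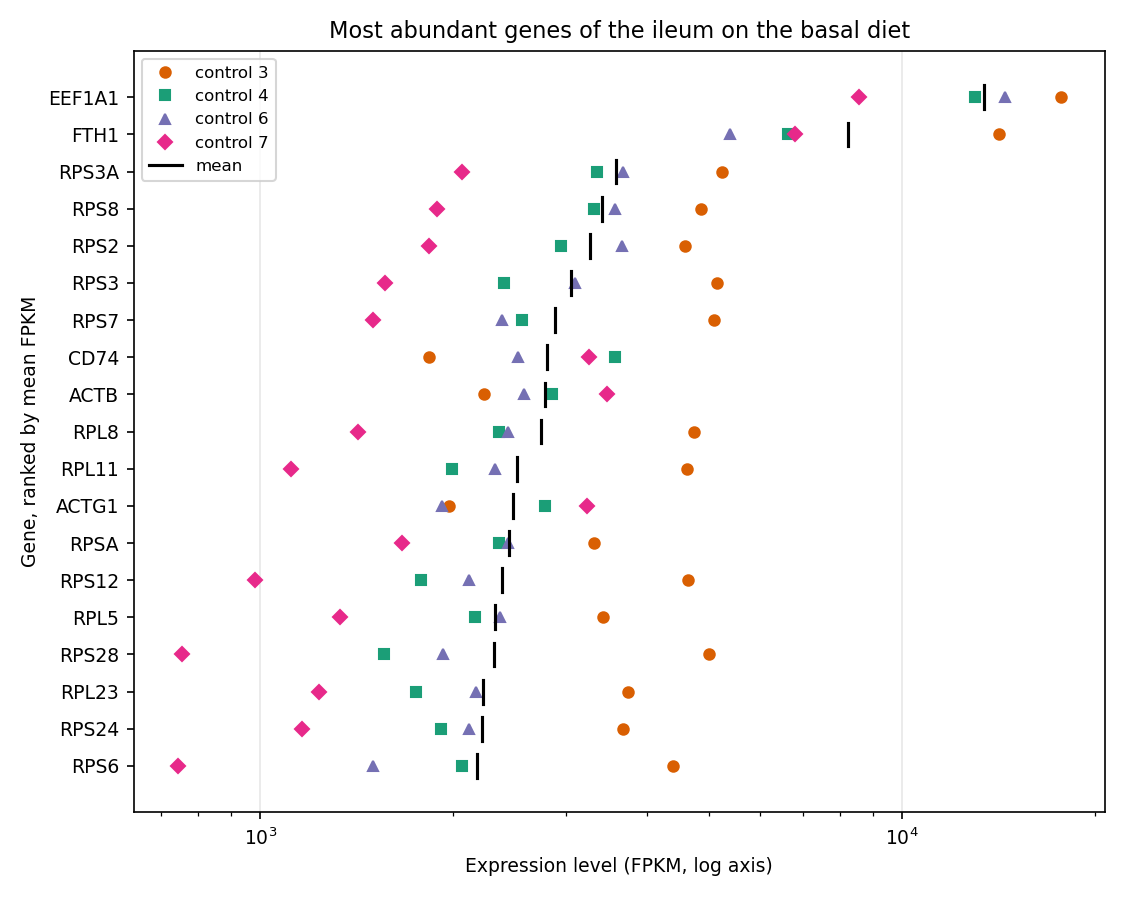
FPKM (log axis) of 19 of the 20 most abundant genes, ranked by the mean, with 1 point per control library and a bar at the mean. EEF1A1 and FTH1 lead, and the control 7 points lie lowest for all 14 ribosomal protein genes.

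To find which member of each gene family dominated, 84 families with at least 2 annotated members and a leader of at least 1 FPKM were ranked by mean FPKM. The same member led in all 4 libraries in 45 of the 84 families (53.6%), and in 25 the leader held over 50% of the family's summed FPKM. No test was made. With 4 libraries a two-sided exact sign test of a leader against its runner-up cannot fall below 0.05. The count of libraries and the spread stand in its place. Of the 30 transporter families, 18 were led by 1 member throughout and 10 had a leader above 50%.

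**Figure D3:**
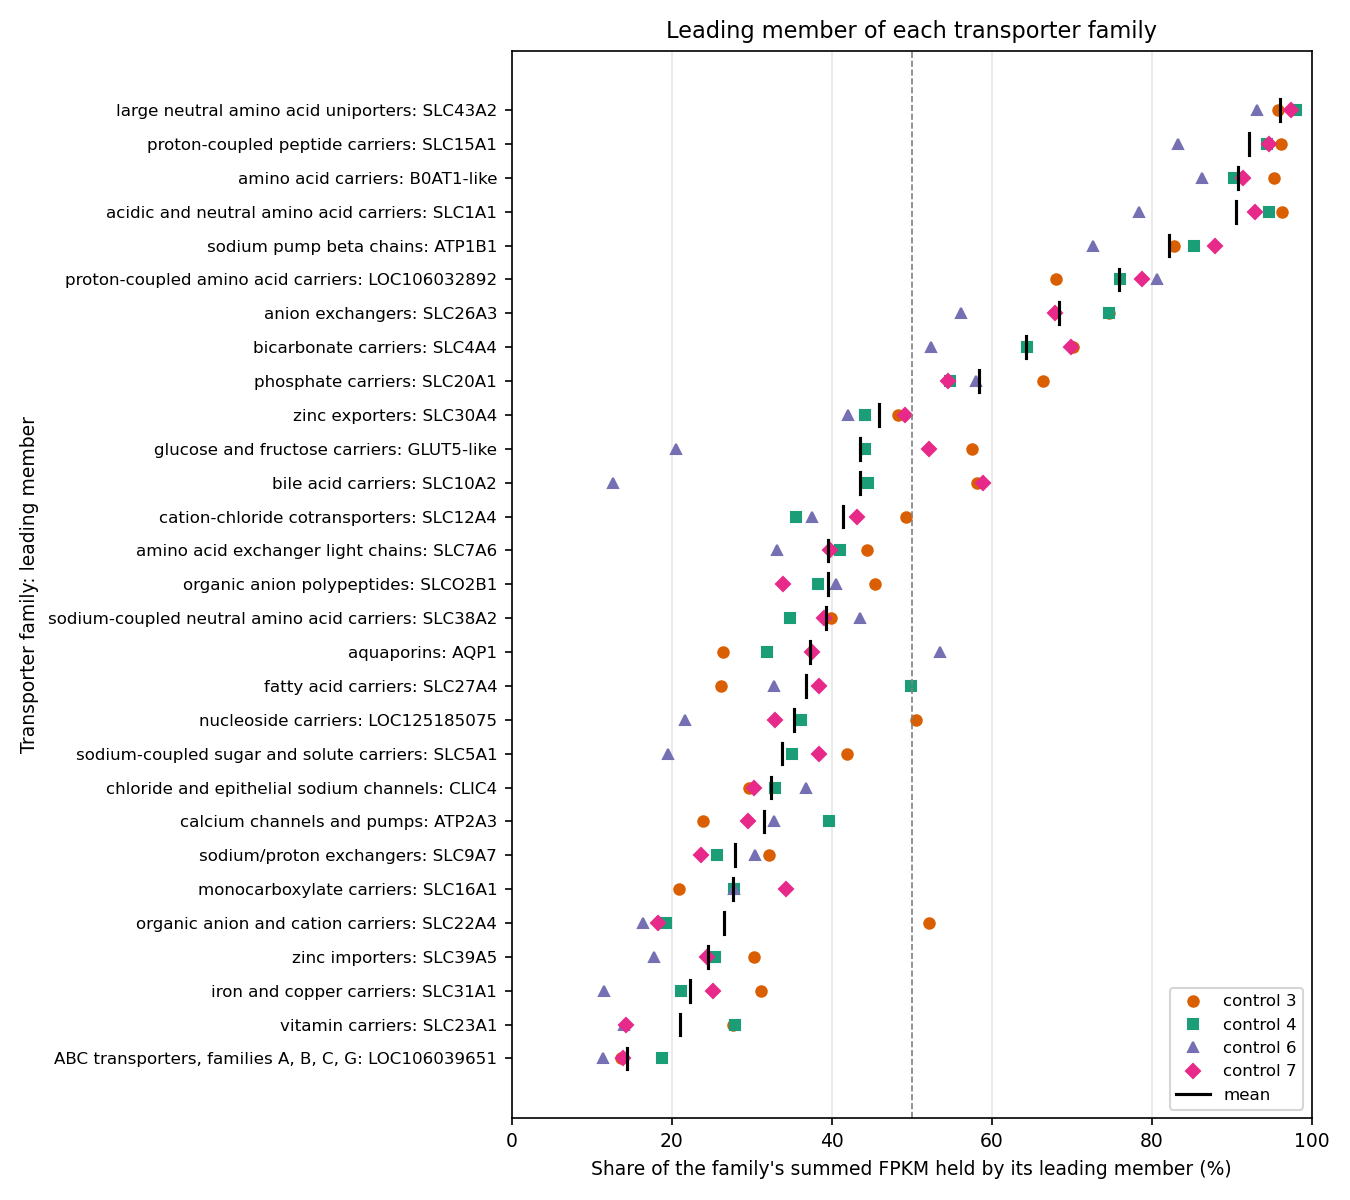
Share of each transporter family's summed FPKM held by its leading member, in percent, for 29 of the families; 1 point per control library, a bar at the mean and a dashed line at 50%. SLC43A2, SLC15A1, the B0AT1-like gene and SLC1A1 hold over 90% on average, and control 6 lies lowest for SLC15A1, SLC1A1, SLC10A2, SLC5A1 and the B0AT1-like and GLUT5-like genes.

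Among carriers of protein digestion products, 1 gene led for each of 3 classes of substrate. SLC15A1 (PEPT1), the proton-coupled carrier of di- and tripeptides, read 455, 373, 133 and 397 FPKM and made up 92.2% ± 5.95 of the 4 SLC15 genes; SLC15A4, a lysosomal carrier, was next at 21.8 ± 3.46 FPKM. For neutral amino acids the leader was LOC106045015, described as the sodium-coupled carrier B0AT1, with 1048, 632, 225 and 959.8 FPKM or 90.8% ± 3.69 of 7 SLC6 genes. SLC6A20, a carrier of proline and other imino acids, followed at 29.2 ± 13.8 FPKM. For acidic amino acids SLC1A1 (EAAC1) read 129.7, 169.7, 45.5 and 182 FPKM, 90.5% ± 8.18 of its family. Each of these 3 carriers led its family in all 4 libraries and was lowest in control 6. Among the light chains of the heteromeric exchangers SLC7A6, a basolateral exchanger of basic and neutral amino acids in mammals, was ahead in every library with 93.3, 86.9, 42.3 and 124 FPKM over SLC7A9, the brush border light chain for cystine and basic amino acids, with 58.3, 46.97, 16.9 and 80.2 FPKM. SLC3A1, the heavy chain that pairs with SLC7A9, read 25.4, 19.9, 7.41 and 23.6 FPKM. At lower levels SLC38A2, a sodium-coupled neutral carrier, led the SLC38 genes at 28.9 ± 10.5 FPKM, SLC43A2, a uniporter of large neutral amino acids, held 96.1% ± 2.18 of its pair at 21.4 ± 9.23 FPKM, and LOC106032892, described as proton-coupled amino acid transporter 1, led the SLC36 pair at 5.92 ± 1.52 FPKM.

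The sugar carriers were led by a gene described as the fructose carrier GLUT5, LOC106044298, with 65.3, 66.7, 19.4 and 86.2 FPKM. It led in 3 of the 4 libraries; in control 6 the intracellular SLC2A8 was ahead, with 14.3, 20.03, 21.9 and 19.6 FPKM over the 4 libraries. SLC2A2, the basolateral glucose exit of the mammalian enterocyte, was lower at 3.44, 6.17, 0.238 and 2.37 FPKM. SLC5A1 (SGLT1), the sodium-coupled glucose carrier of the brush border, read 69.05, 52.1, 10.4 and 54.8 FPKM and was 6.14-fold lower in control 6 than in control 3 on the FPKM + 1 scale. SLC5A12, a sodium-coupled carrier of lactate and other monocarboxylates, read 38.4, 48.8, 1.34 and 22.3 FPKM and was the runner-up of the SLC5 family by mean; in control 6 the vitamin carrier SLC5A6 was its highest member, with 13.3, 15.9, 16.95 and 17.8 FPKM over the 4 libraries. Among the proton-linked monocarboxylate carriers SLC16A1 (MCT1) led in 3 of 4 libraries with 15.3, 25.9, 22.1 and 35.9 FPKM, followed by SLC16A9 at 20.5 ± 6.49 FPKM. The GLUT5-like gene, SLC5A1, SLC5A12 and SLC2A2 were each lowest in control 6; in bulk tissue such as this, fewer cells of a type and less RNA per cell cannot be told apart.

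High levels among ion transport genes were found for the sodium pump and chloride exchange. ATP1B1, a beta chain of the sodium pump, read 233, 282, 171 and 333 FPKM and held 82.1% ± 6.68 of its family. SLC26A3, the chloride/bicarbonate exchanger of the apical membrane, read 115, 139, 55.6 and 116 FPKM, ahead of SLC26A11 at 22.96 ± 2.18 FPKM in every library. SLC4A4, a sodium-bicarbonate cotransporter, led the SLC4 genes at 32.3 ± 8.83 FPKM, over SLC4A2 at 6.04 ± 1.79 FPKM. Among the sodium/proton exchangers SLC9A7, an organelle exchanger in mammals, led at 19.9 ± 2.25 FPKM. SLC12A4 led the cation-chloride cotransporters at 21.8 ± 2.92 FPKM, and SLC12A2, which loads epithelial cells with chloride, was second at 12.4 ± 4.58 FPKM. The chloride channel list was led by CLIC4 at 99.1 ± 22.5 FPKM and CLIC2 at 64.8 ± 15.03 FPKM, a ratio of only 1.47 to 1.63 in the 4 libraries. Calcium pumps were led by ATP2A3, a pump of the endoplasmic reticulum, at 16.9, 53.2, 44.7 and 44.05 FPKM, although ATP2B1, the plasma membrane pump, was ahead in control 3 with 23.8, 25.1, 19.6 and 34.2 FPKM. The phosphate carriers were led by the ubiquitous SLC20A1 at 19.7 ± 5.02 FPKM, with SLC20A2 at 8.15 ± 1.42 FPKM; SLC34A2, the brush border phosphate carrier, read 4.67, 10.3, 0.427 and 8.88 FPKM. Water channels had no settled leader: AQP1, typical of capillary endothelium, read 19.5, 31.00, 71.6 and 47.5 FPKM and AQP5, an apical channel of secretory epithelia, 26.4, 40.5, 41.9 and 43.3 FPKM, and each was ahead in 2 libraries.

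Trace metals, vitamins and nucleosides followed. SLC30A4 led the zinc exporters in all 4 libraries at 65.3 ± 16.5 FPKM, 2.52 to 4.19 times SLC30A7 at 18.7 ± 2.91 FPKM. SLC39A5, a basolateral zinc importer, led the SLC39 genes at 38.01 ± 7.86 FPKM over SLC39A9 at 21.4 ± 7.92 FPKM. The copper importer SLC31A1 at 54.8, 47.9, 23.5 and 67.1 FPKM and the ferric reductase CYBRD1 at 35.4, 56.6, 48.3 and 42.3 FPKM each led the iron and copper list in 2 libraries. Vitamin carriers were not ordered beyond their spread. The ascorbate carrier SLC23A1 at 19.9 ± 10.9 FPKM led in control 4, the proton-coupled folate carrier SLC46A1 at 17.8 ± 10.6 FPKM in control 3, and SLC46A3 at 16.1 ± 3.08 FPKM in controls 6 and 7. Concentrative nucleoside carriers, LOC125185075 and LOC106047460, read 53.3, 43.2, 14.2 and 31.99 and 35.5, 42.2, 15.4 and 35.1 FPKM; in control 6 the equilibrative SLC29A1 was ahead of both, with 8.23, 23.5, 26.6 and 20.3 FPKM over the 4 libraries. Among carriers of organic ions, SLCO2B1 led its family in every library at 17.4 ± 2.399 FPKM over SLCO4A1 at 13.98 ± 4.25 FPKM, whereas SLC22A4, a carrier of the antioxidant ergothioneine, led the SLC22 genes on the strength of control 3 alone, at 46.3, 15.1, 11.5 and 15.5 FPKM. SLC22A3 at 15.1 ± 5.33 FPKM was second on average and first in the other 3 libraries. Fatty acid carriers were led by SLC27A4 at 14.2 ± 3.72 FPKM over CD36 at 12.5 ± 4.76 FPKM, in 3 of 4 libraries. Of 36 ABC transporter genes 28 reached 1 FPKM, and a multidrug resistance protein 3-like gene, LOC106039651, at 42.3 ± 13.7 FPKM and an ABCG2-like gene, LOC106049164, at 38.8 ± 14.3 FPKM shared the lead. ABCG5 and ABCG8, which together return plant sterols to the lumen, read 36.8, 26.7, 11.3 and 30.3 and 24.6, 19.3, 4.68 and 20.9 FPKM and were lowest in control 6.

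Lipid-binding proteins were among the most abundant products of the epithelium. FABP6, given above, held 52.9% ± 8.47 of the 7 FABP genes and led them in every library. FABP1, the liver-type fatty acid carrier, read 1786, 398, 164 and 552 FPKM and FABP2, the intestinal type, 347, 147, 87.7 and 235 FPKM. A further member, LOC106030656, described as the adipocyte type, read 1379.6, 14.9, 20.1 and 47.7 FPKM, so that in control 3 it ranked below only FABP6 and FABP1 and elsewhere it was far below FABP2. APOA1, the main protein of high-density lipoprotein, read 305, 231, 40.1 and 538 FPKM and held 77.9% ± 12.9 of the apolipoprotein list. Its neighbour on the scaffold, APOA4 (scaffold NW_025927688.1, bases 6681507 to 6683082, against scaffold NW_025927688.1, bases 6677545 to 6679359 for APOA1), read 17.04, 22.01, 2.001 and 22.8 FPKM, and APOB, the backbone of the lipoproteins that carry dietary fat, 10.1, 11.6, 1.58 and 23.7 FPKM. The mitochondrial APOO was second on the list at 21.5 ± 0.883 FPKM. The apolipoproteins APOA1, APOA4 and APOB were each lowest in control 6. The packaging protein MTTP at 46.6, 62.97, 28.8 and 88.3 FPKM and the acyltransferase GPAT3 at 52.2, 58.5, 34.7 and 75.4 FPKM each led triglyceride synthesis in 2 libraries.

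Brush border enzymes had clear leaders. ANPEP (aminopeptidase N) read 948, 597, 404 and 1369 FPKM and led the 20 peptidases in every library, ahead of the metalloprotease MEP1A at 409, 454, 77.8 and 479 FPKM. ENPEP, which removes acidic residues, read 344, 253, 35.2 and 388 FPKM. Sucrase-isomaltase, SI, read 165, 186, 64.02 and 222 FPKM, with a maltase-glucoamylase-like gene, LOC106049821, at 58.2, 96.3, 27.1 and 159 FPKM, and SI was ahead in every library. The alkaline phosphatase of the gut was LOC106044775, described as intestinal-type, with 71.8, 102, 38.8 and 176 FPKM, 99.3% ± 0.341 of its family; tissue-nonspecific ALPL stood at 0.418 ± 0.120 FPKM. Carbonic anhydrases were not dominated by any member, with CA7 at 18.5 ± 11.1 FPKM and a carbonic anhydrase 2 gene, LOC106030632, at 17.7 ± 1.97 FPKM. Detoxifying enzymes were equally spread out: a cytochrome P450 3A9-like gene, LOC106032170, read 44.03, 38.5, 8.89 and 57.8 FPKM and a 2W1-like gene, LOC106033533, 26.7, 41.9, 25.03 and 48.1 FPKM among 45 P450 genes, and GSTO1 at 227 ± 109.5 FPKM and MGST3 at 225 ± 64.3 FPKM were level with each other at the head of 13 glutathione transferases.

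Peptide hormones were led by a pair of genes. CCK (cholecystokinin), which drives gallbladder and pancreatic secretion, read 67.2, 87.97, 49.5 and 42.8 FPKM. NTS (neurotensin), a product of distal endocrine cells, read 65.9, 69.01, 54.8 and 53.5 FPKM, and each of the pair was ahead in 2 of the 4 libraries. Of 27 hormone and neuropeptide genes 11 had a mean of at least 1 FPKM. TAC1, the precursor of the neural peptide substance P, read 19.6, 19.9, 42.7 and 23.9 FPKM and was highest in control 6, as were GAL (galanin) at 14.04, 17.8, 29.3 and 17.8 FPKM and VIP at 7.11, 12.1, 21.5 and 15.2 FPKM. GCG, which encodes the glucagon-like peptides, read 23.1, 30.8, 22.7 and 22.04 FPKM, alike in 3 libraries and higher in control 4. The gene given the symbol SCT, described as glucagon family neuropeptides-like, read 25.6, 53.3, 4.02 and 8.57 FPKM. It is the only gene of the hormone list among the 50 most variable genes described below. SST (somatostatin) was lower at 8.39, 9.84, 4.47 and 6.23 FPKM, and the motilin gene MLN averaged 0.0278 FPKM. The granule protein CHGA read 68.4, 179.9, 121 and 146 FPKM, 63.4% ± 6.80 of the granin and processing list, ahead of SCG2 at 13.04 ± 2.88 FPKM. For amines, the decarboxylase DDC at 4.27 ± 2.34 FPKM and the serotonin reuptake carrier SLC6A4 at 3.56 ± 1.73 FPKM were not separable, DDC leading in controls 4 and 7, SLC6A4 in control 3 and the vesicular carrier SLC18A2, at 3.26 ± 1.76 FPKM, in control 6. Growth factor ligands stayed low. On average FGF10 at 5.77 ± 1.35 FPKM was ahead of FGF9 at 5.07 ± 1.95 FPKM. FGF10 led in controls 4 and 7, FGF9 in control 3 and FGF1, at 7.60 FPKM, in control 6. BTC (betacellulin) at 7.75 ± 4.13 FPKM was ahead of NRG4 at 3.39 ± 0.681 FPKM in every library.

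Hormone and nuclear receptors differed in level. FFAR4, a receptor for long-chain fatty acids, led the hormone and nutrient receptors in every library at 9.96, 14.6, 19.2 and 11.5 FPKM, with the insulin receptor INSR second at 8.47 ± 3.45 FPKM. The nuclear receptors NR2F6, an orphan receptor, and HNF4G, a hepatocyte nuclear factor of the gut epithelium, read 94.5, 83.4, 61.9 and 100.4 and 62.8, 100.2, 74.7 and 91.2 FPKM, NR2F6 first in controls 3 and 7 and HNF4G in controls 4 and 6. NR1H4 came next of the 39, followed by NR1H3, a sterol receptor, at 44.97 ± 6.92 FPKM.

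Tight junction transcripts came mainly from a few genes. CLDN10, a pore-forming claudin, read 159, 108, 69.8 and 107 FPKM and CLDN3, a sealing claudin, 117, 127, 73.5 and 117 FPKM. CLDN10 was ahead only in control 3, by 1.37 times, and without that library CLDN3 leads in all of the rest. The next claudin, CLDN1, stood at 17.3 ± 7.17 FPKM, and 9 of 20 claudin genes reached 1 FPKM. In the occludin family MARVELD3 led with 42.9, 50.04, 37.3 and 45.3 FPKM over OCLN with 24.4, 31.1, 17.2 and 28.2 FPKM, at 1.60 to 2.17 times in every library. The adhesion protein CXADR at 70.5 ± 27.01 FPKM led F11R (JAM-A) at 51.96 ± 10.9 FPKM in 3 of 4 libraries, and the scaffold TJP3 stood at 16.8 ± 2.64 FPKM. Adherens junctions were led by CDH1 (E-cadherin) at 170.1, 172, 117 and 193 FPKM, ahead of the intestinal CDH17 at 80.1, 102, 55.9 and 120.3 FPKM, and by CTNNB1 (beta-catenin) at 126 ± 25.7 FPKM over CTNNA1 at 81.4 ± 23.5 FPKM. EPCAM, the epithelial adhesion molecule, read 477, 474, 297 and 498 FPKM and held 97.2% ± 0.861 of its list, whose second gene was NECTIN3 at 8.47 ± 1.33 FPKM. Desmosomal genes were led by PERP at 70.1 ± 20.9 FPKM over JUP (plakoglobin) at 49.97 ± 14.9 FPKM, in 3 libraries. GJA1 (connexin 43) led 21 connexins at 17.6, 31.5, 53.9 and 38.3 FPKM, over a gap junction beta-6 gene, LOC106040406, at 8.46 ± 3.03 FPKM. ITGB1, the common integrin beta chain, led 27 integrins at 91.7 ± 27.01 FPKM over ITGA3 at 28.8 ± 11.5 FPKM.

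Among products of the mucus layer, the mucin list was led by LOC106042592, described as intestinal mucin-like, at 84.5, 216, 77.6 and 114 FPKM; its gene model begins at base 54 of scaffold NW_025928126.1 and may be incomplete. MUC13, a membrane mucin, was second at 40.6, 58.5, 31.7 and 99.6 FPKM, and the gene annotated as MUC2 read only 0.344, 5.05, 1.37 and 3.03 FPKM. Secreted goblet cell products were more abundant than any mucin: a trefoil factor 1-like gene, LOC106036076, read 505, 774, 1263 and 1162 FPKM and the disulfide isomerase AGR2 657, 613, 481 and 633 FPKM. In the epithelial skeleton, KRT20 at 324, 273, 124 and 269 FPKM led the keratins in controls 3 and 4, a type II keratin, LOC106048698, at 213, 224, 139 and 287 FPKM in control 7 and KRT18 at 209, 197, 154 and 187 FPKM in control 6. SCIN (scinderin) was ahead of VIL1 (villin), both actin-severing proteins, with 232, 311, 161 and 307 against 142, 156, 77.5 and 202 FPKM, although in control 6 the broadly expressed GSN (gelsolin), at 70.7, 126, 201 and 116 FPKM over the 4 libraries, exceeded both. The linker EZR at 138 ± 39.4 FPKM and the bundler PLS1 at 116 ± 53.5 FPKM were first and second of the 32 genes on the cytoskeletal linker list; LCP1, a leukocyte plastin, was ahead in control 6, with 54.5, 124, 89.04 and 107 FPKM over the 4 libraries. Microtubules were led by TUBB4B at 230.4 ± 32.6 FPKM over a tubulin alpha-8 gene, LOC106045884, at 54.1 ± 8.72 FPKM. In the deeper layers MYH11, smooth muscle myosin, read 105, 227, 475 and 215 FPKM over MYH9 at 86.1 ± 32.8 FPKM, and COL3A1, a fibrillar collagen, read 105, 187, 322 and 375 FPKM over COL1A2 at 37.1, 83.8, 168 and 180.0 FPKM. MYH11 was highest in control 6 and lowest in control 3. The regulators of gut identity were led by CDX2, the master factor of the intestine, at 132, 76.2, 69.9 and 96.1 FPKM. ID2, an inhibitor of helix-loop-helix factors, followed at 75.5 ± 8.67 FPKM and was ahead in control 6 at 76.0 FPKM. CDX1 stood at 59.5 ± 22.7 FPKM. GATA5 and GATA6 stood at 24.6 ± 3.92 and 25.2 ± 5.78 FPKM beside GATA4 with no counts. Among the general chaperones HSPA8 led 60 heat shock genes at 229.7, 223, 349.8 and 350.3 FPKM, over HSP90AA1 at 124, 158, 401 and 256 FPKM, which was ahead in control 6.

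Antigen presentation stood out in level among immune genes. CD74 held 70.9% ± 3.72 of the MHC class II list, and a class II alpha chain gene, LOC106049922, described as DRA-like, read 884, 1242, 858 and 1186 FPKM. In class I, B2M led in 3 of 4 libraries. The heavy chains behaved otherwise: LOC125181878 read 22.8, 170.4, 1543 and 1833 FPKM, LOC125181435 1077, 394, 19.3 and 312 FPKM and LOC106029505 199, 156, 49.98 and 132 FPKM. LOC125181878 was the highest heavy chain in controls 6 and 7, and LOC125181435 in controls 3 and 4. All carry the same deposited description, and the authors' counting could split reads between such copies, so each single value is uncertain. Over a set of 4 heavy chain genes put together after the values were seen, the summed level was 1327, 767, 1634 and 2327 FPKM, which differed less between libraries than LOC125181878 or LOC125181435 did.

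Innate defence was led by secreted proteins. The bactericidal permeability-increasing protein gene LOC106047130 held 70.3% ± 6.32 of the antimicrobial list and led it in every library, and a secretory phospholipase A2-like gene, LOC106040243, was second at 234, 336, 610.1 and 346 FPKM. LYZ (lysozyme) read 158, 357, 386 and 275 FPKM. These 3 genes were lowest in control 3 and highest in control 6. Among the 11811 genes used below to describe variation, control 3 was lowest for 58.9% and control 6 highest for 37.6%. The order of these 3 genes is therefore not read as a pattern of innate defence. CFD, the complement protease adipsin, read 655, 1103, 1409 and 729.5 FPKM, 71.5% ± 7.33 of the complement list, whose next gene was C1QA at 54.9, 61.7, 73.1 and 76.4 FPKM. Among sensors, TLR2 led the Toll-like receptors in every library at 7.44, 10.5, 7.93 and 15.6 FPKM over a TLR1 gene, LOC125179680, at 3.75, 4.93, 6.84 and 11.7 FPKM. NLRX1 at 9.496 ± 1.52 FPKM led NLRC3 at 8.41 ± 3.63 FPKM, and IFIH1 (MDA5) at 28.9 ± 8.64 FPKM led DHX58 at 21.7 ± 6.83 FPKM, in 3 of 4 libraries each. The lectin list was led by LGALS2, a galectin, at 737, 324, 246 and 237 FPKM, and its runner-up, a C-type lectin 2D-like gene, LOC106029346, was nearly constant at 127, 118, 120.2 and 123 FPKM. The interferon-stimulated list was led by LOC106036023, described as interferon alpha-inducible protein 27-like 2B, at 2348, 118, 339.8 and 289.9 FPKM, and only through control 3; in the other libraries an interferon-inducible transmembrane protein 3 gene, LOC125183345, led at 379, 183, 490.1 and 387 FPKM over the 4 libraries.

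Cytokines were led by the death ligand TNFSF10 (TRAIL) at 109, 119, 102 and 162 FPKM, with a second TNFSF10-like gene, LOC106037642, at 39.8 ± 12.4 FPKM; 17 of the 32 cytokine genes listed reached 1 FPKM. Chemokines were led by a CCL26-like gene, LOC106048600, in every library at 202, 289.7, 375 and 281 FPKM, ahead of a lymphotactin-like gene, LOC106038263, at 33.4, 89.9, 25.3 and 18.5 FPKM. CCL20, which draws CCR6-bearing lymphocytes to the mucosa, read 58.9, 37.2, 35.7 and 29.5 FPKM. Of 68 cytokine receptor genes 55 reached 1 FPKM, led on average by IFNGR2, a chain of the interferon gamma receptor, and the epithelial IL22RA1 at 74.7 ± 19.3 and 64.5 ± 20.1 FPKM. CXCR4 at 17.1 ± 4.81 FPKM and CXCR6 at 13.2 ± 0.902 FPKM led the chemokine receptors on average, although CCR2 was ahead in control 7 at 15.4 FPKM. T cells were marked by CD3D, a chain of the T cell receptor complex, at 163, 188, 116 and 91.5 FPKM and by a T cell receptor alpha chain, LOC106045971, at 113, 169.8, 105 and 84.7 FPKM; both were highest in control 4. CD4 and CD8A, the coreceptors, stood at 12.6 ± 3.57 and 4.87 ± 1.85 FPKM. Antibody genes were led, in 3 of 4 libraries, by an IgA heavy chain constant region, LOC106049914, at 149.6, 177, 328 and 315 FPKM, over PIGR, which carries IgA across the epithelium, at 116, 145, 235 and 289 FPKM, and JCHAIN, which joins its units, at 102, 205, 230.4 and 244 FPKM; JCHAIN was ahead in control 4. The IgM constant region, LOC106049913, read 27.7, 97.4, 102 and 90.5 FPKM, below IgA in all 4 libraries.

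Variation between the libraries was described over the 11811 genes with a mean of at least 1 FPKM and 50 counts. For the median gene, the highest library was 1.66 times the lowest on the FPKM + 1 scale. The highest stood over 2-fold above the lowest for 3370 genes (28.5%) and over 4-fold for 331 genes (2.80%). The second count was 146 without control 3, 187 without control 6, 225 without control 7 and 293 without control 4. A gene's range cannot widen when a library is left out, so a fall by itself carries no information. The fall was largest without control 3. The common biological coefficient of variation, the part of the spread that exceeds counting error, was 0.349 in an edgeR fit over 14424 genes. The members of the families described above can be read beside these shares: of the genes kept, 50 of 82 in the absorption families (61.0%), 110 of 212 transporters (51.9%), 122 of 244 immune genes (50%), 51 of 94 junction genes (54.3%), 81 of 141 genes of epithelial structure (57.4%) and 36 of 78 hormone genes (46.2%) passed 2-fold. The families classed as housekeeping held only ferritin and the heat shock genes, and no ribosomal protein genes. With 14 of 57 (24.6%), they were near the 28.5% of all genes kept. Over 4-fold the shares were 25.6% for absorption, 11.3% for epithelial structure, 8.49% for transporters, 6.97% for immune and 3.19% for junction genes. They were 2.56% for hormone genes and 0% for the ferritin and heat shock genes. The shares of junction and hormone genes were near the 2.80% of all genes kept. At the other end, RAN, a nuclear transport GTPase, read 153, 154, 155 and 157 FPKM and NDUFV1, of respiratory complex I, 136, 132, 130.3 and 133 FPKM.

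The 50 most variable genes, ranked by the SD of log2(FPKM + 1), had SDs from 1.49 to 3.32, against 0.33 for the median gene; 18 had a symbol and 32 were named by LOC number only. Each gene was placed by the largest gap between its 4 sorted values. Among the 331 genes over 4-fold, control 3 stood alone above the gap for 58, or 17.5% against 9.42% of all genes kept, and control 7 for 27, or 8.16% against 5.55%. Control 3 stood alone below the gap for 89, the largest count, but this was 26.9% against 40.0% of all genes kept. Control 6 stood alone below it for 69, or 20.8% against 5.63%. Controls 6 and 7 stood together above controls 3 and 4 for 39, which is 11.8% against 4.22% of all genes kept; the reverse occurred for 3 genes.

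**Figure D4:**
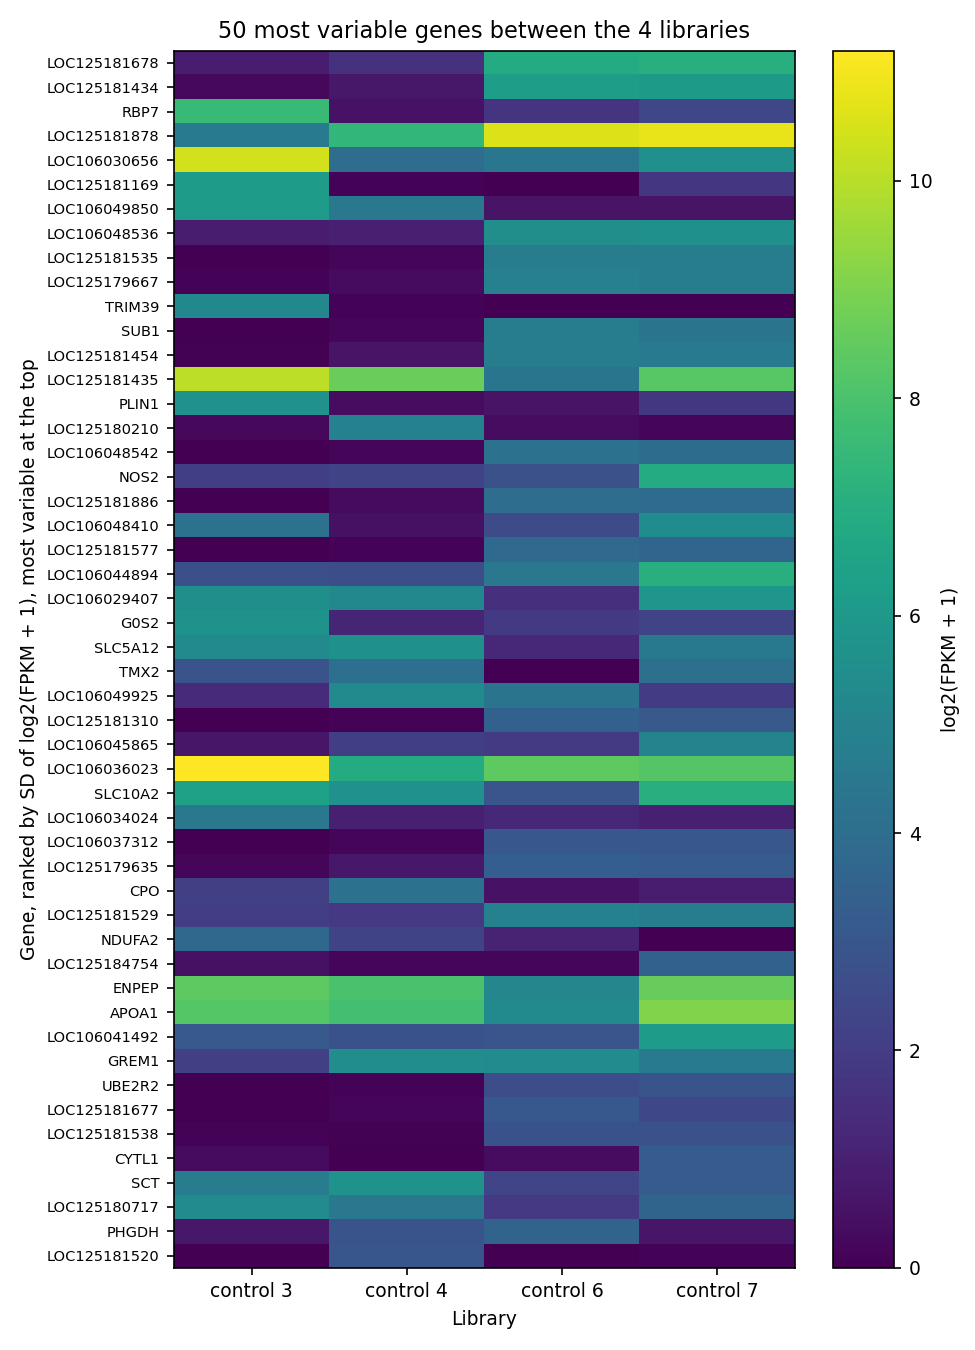
Heat map of the 50 most variable genes (rows, most variable at the top) in the 4 control libraries (columns); colour is log2(FPKM + 1). One block of genes is dark in controls 3 and 4 and bright in controls 6 and 7, led by LOC125181678 and LOC125181434, and another, with RBP7, PLIN1 and G0S2, is bright in control 3 only.

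The largest pattern among the 50 was that of controls 6 and 7, which held 18 of them. It was picked out after the values were seen. By a stricter rule, both of these libraries over 4-fold above both others on the FPKM + 1 scale, 26 genes were found, 24 of them named by LOC number only and 14 at 0 FPKM in control 3. LOC125181678, whose description names no known protein, was the most variable gene of all at 0.842, 1.99, 118 and 129 FPKM (scaffold NW_025928488.1, bases 18430 to 23663). LOC125181434, described as the transcription factor BTF3, read 0.171, 0.659, 77.6 and 68.1 FPKM, and LOC106048536, described as the ATPase VCP, 0.838, 1.002, 45.4 and 48.2 FPKM. A gene given the symbol SUB1, a transcriptional coactivator, read 0, 0.142, 24.9 and 18.8 FPKM and one given UBE2R2, a ubiquitin-conjugating enzyme, 0, 0.0788, 5.28 and 6.403 FPKM. LOC125181363, described as the chromatin remodeller CHD1, read 0, 0, 4.69 and 4.55 FPKM, and LOC125181310, described as spindlin-1, 0, 0.0638, 9.99 and 7.68 FPKM. In each gene named here controls 6 and 7 lay close together and controls 3 and 4 lay at or near 0. For at least 18 of the 26 a gene with the matching symbol was also measured. Each of the 18 partners looked up was expressed in all 4 libraries. BTF3 itself read 176, 104, 69.8 and 58.2 FPKM, VCP 42.96, 57.4, 39.97 and 42.4 FPKM, CHD1 4.46, 8.37, 6.29 and 5.61 FPKM and SPIN1 8.48, 21.1, 19.4 and 18.01 FPKM. As background, CHD1 and SPIN1 are known in birds as genes with separate copies on the Z and the W sex chromosome, of which only females carry the W; the labels give no sex, the chromosomes of these genes were not analysed here, and the part of the birds' sex in the pattern was not tested.

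Genes high in control 3 alone included several of fat storage. RBP7, a retinoid-binding protein of adipose tissue (scaffold NW_025927702.1, bases 2319802 to 2322721), read 193, 0.465, 2.31 and 4.14 FPKM and led the retinoid-binding list through that library only; its runner-up RBP5 read 32.99, 17.3, 32.4 and 14.1 FPKM. PLIN1 (perilipin), the coat of the fat droplet, read 49.2, 0.310, 0.489 and 2.49 FPKM, G0S2, an inhibitor of lipolysis, 53.4, 1.21, 2.79 and 3.88 FPKM, and LPL (lipoprotein lipase) 15.6, 1.89, 3.63 and 3.86 FPKM. CIDEC and CIDEA, further droplet proteins, read 13.5, 1.93, 1.04 and 5.84 and 13.2, 2.96, 3.18 and 2.64 FPKM, and LOC125181169, described as MID1-interacting protein 1, 71.1, 0.0775, 0 and 2.45 FPKM. Control 3 was above the other 3 libraries for each of these genes and for the adipocyte-type FABP. ADIPOQ (adiponectin), another adipocyte product, went the other way with 20.1, 38.7, 55.8 and 35.7 FPKM, lowest in control 3, and the master regulator PPARG was even at 7.37, 6.64, 5.53 and 6.36 FPKM. An adipocyte list assembled after the values were seen summed to 1600.5, 129, 151 and 177 FPKM over 14 genes, of which 7 were highest and 5 lowest in control 3, against 18.6% and 58.9% of all genes kept. The adipocyte-type FABP, LOC106030656, made up most of the sum in control 3. Without it the list summed to 221, 114, 131 and 129.7 FPKM. Because the members were chosen with their values known, a high sum or count in control 3 carries no separate information. Whether the sample of control 3 held fat tissue, and whether that moved the levels of other genes, was not tested.

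Genes low in control 6 included many of the enterocyte. SLC5A12, SLC10A2, ENPEP and APOA1, all given above, were among the 20 most variable genes with a symbol. SCT was lower in controls 6 and 7 than in controls 3 and 4. Of 18 enterocyte markers, 17 were lowest in control 6, against 13.6% of all genes kept, and all 18 ranged over 2-fold, against 28.5%. AOC1, a diamine oxidase made by enterocytes, read 18.3, 14.99, 2.08 and 31.4 FPKM. CPO (carboxypeptidase O), a brush border peptidase, read 3.38, 17.7, 0.482 and 0.878 FPKM. Unlike AOC1, CPO was low in controls 6 and 7 alike and stood highest in control 4. The enterocyte list summed to 8032, 3794, 1887 and 5512 FPKM, lowest in control 6. Its sum was highest in control 3, which FABP6 and FABP1 led, whereas 12 of the 18 members were highest in control 7 and 6 in control 3. Smooth muscle moved the other way: its list summed to 3241, 3296, 6289 and 3214 FPKM. Its 12 measured entries carry 11 different symbols, so they are not 12 separate listed genes. Of the 12 entries, 11 were highest in control 6, which was the highest library for 37.6% of all genes kept. All 10 endothelial markers that passed the filter were also highest in control 6, with a list sum of 46.6, 64.2, 111 and 65.4 FPKM, and 4 haemoglobin genes summed to 635, 439.6, 1167 and 584 FPKM. TMM scaling kept control 6 lowest for the enterocyte list and highest for the smooth muscle, endothelium and haemoglobin lists. Whether control 6 held fewer villus cells or its cells held less of these transcripts cannot be told apart.

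**Figure D5:**
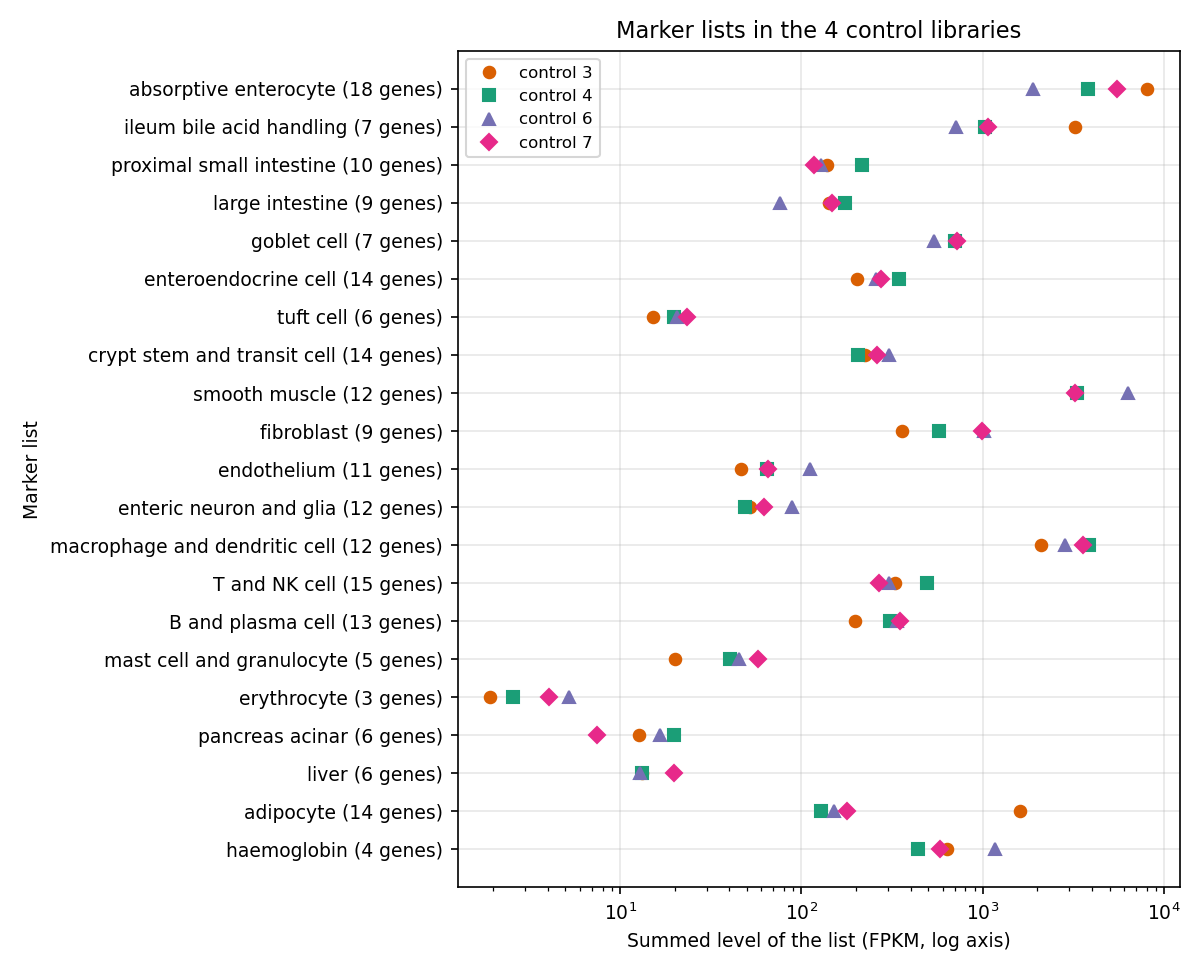
Summed FPKM (log axis) of each marker list in the 4 control libraries, 1 point per library; the adipocyte and haemoglobin lists were assembled after the values were seen. Control 6 lies lowest for enterocyte genes and highest for smooth muscle and endothelium, and control 3 lies far to the right for adipocyte genes.

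Control 7 stood alone above the other libraries for a further set of genes, named here after their values were seen. NOS2, inducible nitric oxide synthase, read 3.17, 3.97, 5.82 and 119 FPKM. A CCL4-like chemokine, LOC106041492, read 7.85, 6.15, 6.79 and 70.4 FPKM and a CCL3 gene, LOC125183261, 26.6, 9.35, 9.48 and 89.1 FPKM. The avian beta-defensin gallinacin-10, LOC125184754, read 0.404, 0.0956, 0.123 and 10.1 FPKM, an acidic mammalian chitinase gene, LOC106045865, 0.592, 3.16, 2.72 and 31.3 FPKM, and the cytokine-like CYTL1 0.252, 0, 0.300 and 8.72 FPKM. LOC106044894, described as dynactin-associated protein, read 5.63, 5.46, 20.6 and 134 FPKM. IL22, a cytokine of mucosal defence, was also highest in control 7, at 3.72, 2.49, 5.26 and 10.6 FPKM. The macrophage and dendritic cell list summed to 2089, 3847, 2825 and 3578 FPKM, highest in control 4, but most of that was CD74. Without CD74 it summed to 259.5, 271, 301 and 329 FPKM, highest in control 7, and 6 of its 12 members were highest there, against 25.3% of all genes kept. The part of leukocyte content in these genes was not tested.

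Several variable genes belong to immune families with many copies. TRIM39, whose deposited description names a butyrophilin, read 36.8, 0.0941, 0 and 0 FPKM, with 6 counts in control 4 and none in controls 6 and 7. A butyrophilin 1A1 gene, LOC106049850, read 69.5, 21.2, 0.491 and 0.515 FPKM, a similar one, LOC125180210, 0.167, 29.6, 0.299 and 0.108 FPKM, and a TRIM39-like gene, LOC106029407, 47.4, 36.1, 1.83 and 58.1 FPKM. A CD69-like gene, LOC106049925, read 1.52, 39.2, 18.96 and 2.95 FPKM. A fucosyltransferase-like gene, LOC106048410, read 17.4, 0.414, 5.16 and 41.98 FPKM. The library with the highest value was control 3 for TRIM39 and LOC106049850, control 4 for LOC125180210 and LOC106049925, and control 7 for LOC106029407 and LOC106048410, and reads may be split between copies of such genes. Among the remaining named genes of the 20, TMX2, a thioredoxin-related protein, read 6.37, 16.1, 0 and 16.6 FPKM, a gene given NDUFA2, of respiratory complex I, 12.7, 3.93, 1.17 and 0 FPKM, and PHGDH, the first enzyme of serine synthesis, 0.642, 6.46, 10.9 and 0.605 FPKM. GREM1, a BMP antagonist made by muscle and stromal cells of the crypt base in mammals, read 3.29, 43.8, 41.2 and 23.6 FPKM. The sulfatase SULF1 read 1.15, 13.99, 18.9 and 12.5 FPKM. Both were lowest in control 3, as were 58.9% of all genes kept.

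Marker lists of the remaining cell types were summed in the same way, without TMM scaling. With TMM scaling the highest library became control 3 for the goblet, crypt and large intestine lists and control 7 for the fibroblast list. The lowest library changed from control 3 to control 6 for the enteroendocrine list and the macrophage and dendritic cell list. Orders that changed with scaling are not read further. The goblet cell list summed to 704, 699, 537 and 718 FPKM, most of it AGR2. Without AGR2 it summed to 46.6, 86.0, 56.2 and 85.0 FPKM, lowest in control 3, a sum that was not rescaled by TMM. Of the 7 members of the full list that passed the filter, 4 were lowest in control 3 and 3 in control 6. The shares of all genes kept were 58.9% and 13.6%. The enteroendocrine list summed to 202, 346, 259 and 273 FPKM. The crypt and cycling cell list summed to 223, 205, 302 and 261 FPKM. Its highest member was OLFM4, a crypt base marker in mammals, at 97.7, 51.7, 104 and 61.2 FPKM. The list without OLFM4 summed to 125, 153, 198 and 199.7 FPKM. Of its 12 members that passed the filter, 9 were lowest in control 3, against 58.9% of all genes kept. The stem cell receptor LGR5 averaged 0.852 FPKM. The fibroblast list summed to 358, 575, 1020.5 and 986 FPKM and was lowest in control 3. Of its 9 members that passed the filter, 8 were lowest in control 3, against 58.9% of all genes kept. That share was not matched to transcript length, and long transcripts were low in control 3, as given above. T and NK cell genes summed to 327, 494, 303 and 267 FPKM, B and plasma cell genes to 196, 307, 338 and 349.9 FPKM, and neuron and glia genes to 52.3, 48.7, 89.1 and 62.04 FPKM. Tuft cell genes summed to 15.2, 19.9, 20.7 and 23.3 FPKM, mostly from ALOX5 at 14.4 ± 1.47 FPKM.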

How the data were processed

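RNA from the ileum was measured in 12 libraries, of which the 4 of the basal diet were used; replicate numbers are those of the labels. Polyadenylated RNA was made into strand-marked paired-end libraries, per the labels' protocols. Trimming and alignment tools listed per the submitters' processing notes were HISAT2 2.2.1 and cutadapt 1.9, beside StringTie 2.1.6. For the genome build, the use of strand in counting and reads that match several copies nothing is stated, so overlapping genes, antisense genes and close copies are uncertain. The deposited table gives for each gene a count, not normalized, and an FPKM value set by the authors by transcript length and library size. In the control libraries a count of 4 occurred 1702 times, against 589 times for 3 and 520 times for 5, so a read pair may stand for several counts and counting error may be larger than the counts alone give.

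Of 19836 gene identifiers 17685 matched RefSeq's current goose annotation, which gave a symbol to 720 of the 7268 genes named by LOC number; coordinates are those of the deposited table. From FPKM the mean, SD and library order were computed. Families were matched by symbol or, for LOC-named genes, by deposited description, a rule added after values were seen. Variable genes had a mean of at least 1 FPKM and 50 counts; range and SD were taken on log2(FPKM + 1) with a pseudocount of 1 FPKM. edgeR 4.0.16 gave TMM factors and the coefficient of variation, from a fit tested on simulated data. Named genes are the 20 most abundant, the leader and runner-up of each family, and the 20 most variable with a symbol, apart from a few that are not reported here; the others were chosen after their values were seen. The members and lists were chosen with earlier results of these data known. There was no group comparison and no test, so precision is the spread over 4 libraries. Alternatives changed the level floor, pseudocount, filter, scaling, ranking and the libraries used.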

Additional observations from a re-analysis of the deposited data

Results flagged for a closer look

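For 35 of the 261 genes named above, the highest or lowest of the 4 libraries lay far from the nearest other library for the width of the whole range. Chance flags about 1 in 20 groups of 4, and several of these genes were named because they varied, so the number itself is not read further. The share flagged among all genes kept is not given. By the largest gap, a different measure, control 3 stood alone below for 40.0% of all genes kept and alone above for 9.42%. Control 7 stood alone above for 5.55%, control 4 alone above for 4.24% and control 6 alone below for 5.63%. The counts by library are therefore not read as a result about the named genes. Each value below is the FPKM of the library that stood apart.

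Control 3 was far above the rest for 13 genes. Those of bile acid and fat handling were FABP6 at 3013 FPKM, the adipocyte-type FABP LOC106030656 at 1380 FPKM, RBP7 at 193 FPKM, PLIN1 at 49.2 FPKM, G0S2 at 53.4 FPKM, LPL at 15.6 FPKM, CIDEA at 13.2 FPKM and LOC125181169 at 71.1 FPKM. The others were FTH1 at 14161 FPKM, LOC106036023 at 2349 FPKM, SLC22A4 at 46.3 FPKM, TRIM39 at 36.8 FPKM and GIP at 0.607 FPKM. Control 3 was far below the rest for 7 genes: LOC106032892 at 3.68 FPKM, SLC4A2 at 3.38 FPKM, CLIC4 at 65.5 FPKM, AQP5 at 26.4 FPKM, SLC22A3 at 7.21 FPKM, NLRX1 at 7.24 FPKM and the IgM constant region LOC106049913 at 27.7 FPKM.

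Control 7 was far above the rest for 7 genes. These were NOS2 at 119 FPKM, the CCL4-like LOC106041492 at 70.4 FPKM, gallinacin-10 (LOC125184754) at 10.1 FPKM, the chitinase LOC106045865 at 31.3 FPKM, CYTL1 at 8.72 FPKM, LOC106044894 at 134 FPKM and LCT at 0.438 FPKM. Control 4 was far above the rest for 6 genes, namely HOXA11 at 1.16 FPKM, HOXA13 at 2.84 FPKM, GCG at 30.8 FPKM, NLRC3 at 13.8 FPKM, CPO at 17.7 FPKM and the butyrophilin LOC125180210 at 29.6 FPKM. Control 6 was far below the rest for SLC20A1 at 12.2 FPKM and EPCAM at 297 FPKM. Control 6 was far above the rest for none of the 261 genes.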

How the results depend on the processing

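No paired analysis was possible because no groups were compared and no result comes from a test. The count of genes above the level floor, the identity of the 20 most abundant genes and the number of families led by the same member stayed within 1.5 times of the reported value under every alternative run. By raw counts, which favour long genes, the 20 top genes held 9.90% of the total in place of 15.8%, and 14 of the 20 were shared. The same member led in 44 to 55 families; by raw counts 59 of the 84 leaders were the same, and by the median 76 were. The number of genes over 4-fold was 717 with a pseudocount of 0.1 FPKM, which lets low genes range further, and 146 to 293 when 1 library was left out. Of the 50 most variable genes 25 were shared when ranked by the CV of FPKM, 33 with a pseudocount of 0.1 FPKM, 25 by edgeR's tagwise dispersion and 38 to 42 when 1 library was left out. The biological coefficient of variation of 0.349 was 0.444 with no filter and 0.287 to 0.383 when 1 library was left out; the lowest was without control 3. TMM scaling gave 366 genes over 4-fold and kept 47 of the 50. Matching members by symbol only, an alternative chosen after seeing the data, gave 44 families led by the same member. The depth limits genes under 1 FPKM, where order within a family was not read.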
